A study of Solanum virginianum with 2 samples.

Results

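A set of 11 miRNA names grouped here as pieces of ribosomal RNA (rRNA) or transfer RNA (tRNA) was followed in small RNA and degradome data from eggplant pistils. The members were the small RNAs named, in mature (miR) or precursor (MIR) form, after miR2911, miR2916, miR1310, miR6300, miR894, miR6478, miR5368, miR5072, miR6173, miR4995 or miR5139, and the names alone chose them. The rule found 69 of 686 listed small RNA sequences, and these held 31516 of 135737 listed reads. In the degradome table it found 1576 of 18764 predicted pairings between small RNAs and transcripts.

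The tissue was pistil of a long purple eggplant, line 'B3-3', whose plants bear flowers of both an S-morph with short pistils and an L-morph with long pistils. The series title names Solanum melongena, whereas the organism field of both samples names Solanum virginianum. The study had 1 small RNA library and 1 degradome library, each a mixture of pistils of both morphs. The labels give days 1 to 3 and 3 to 6 after budding, and the extraction protocol adds phase 5, days 13 to 15. Phase 5 is recorded for both libraries, so whether it holds for the degradome alone is unclear. The morphs cannot be compared, and with 1 library per assay there is no replicate and no test. All values below describe these libraries, and the intervals are exact (Clopper-Pearson) 95% binomial intervals. Those intervals cover at most counting error and no spread between libraries. For reads they treat each read as an independent draw. The reads were amplified and carry no molecular identifiers, so these intervals can be too narrow.

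Ribosomal RNA and tRNA make up most of the RNA of a cell, and their breakdown leaves short pieces that enter small RNA libraries. Several such pieces were entered in miRNA databases before their source was recognised, and a new read that matches one takes that name. A typical plant miRNA is cut from a hairpin at a fixed length, usually begins with U and guides cleavage of a nearly complementary mRNA, whereas tRNA pieces often keep the 5′ end or the 3′ CCA tail of the mature tRNA. No rRNA or tRNA sequence of eggplant was used here, so the origin of the reads was not tested.

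The 7 most abundant sequences are shown because together they held 84.1% of the members' reads. They carried the names miR2911 and miR1310, which match large-subunit rRNA in other plants, and miR2916, which matches small-subunit rRNA. The letters are those of the deposited list, written 5′ to 3′, and the capitals mark the seed, bases 2 to 8.
peu-MIR2911-p5: cGGUGGACugcucgagcugcucc
peu-MIR2916-p5_1ss5AG: uACCGUCCuagucucaaccaua
nta-miR2911_L+3: gCCGGCCGggggacggacuggga
peu-MIR2916-p3: aCCAUAAAcgaugccgaccaggga
nta-MIR2911-p3: uUCCCCGGgcgucgaacagcc
han-MIR1310-p3: uUCUCAAAcuuuaaauaggua
han-miR1310_L-1R+4_1ss5AC: gGCCUCGGgggcgcaacgcccucga
No seed occurred in more than 1 of these 7 sequences, and none of the 3 names held sequences that overlapped each other by 15 nt. The last 6 bases of the miR2916 p5 sequence were the same letters as the first 6 of the p3 sequence, short of that minimum.

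The next set shows the tRNA-type 5′ ends. The name miR6300 matches the 5′ end of tRNA-Asp and miR6478 the 5′ end of tRNA-Tyr in other plants. The capitals in the miR6300 sequences mark the bases after base 18, where their lengths and letters differ.
gma-miR6300_R+5-1: gucguuguaguauaguggUGAGU
gma-miR6300_R+5-2: gucguuguaguauaguggUAAGU
gma-miR6300_R+6-1: gucguuguaguauaguggUGAGUA
gma-miR6300_R+6-2: gucguuguaguauaguggUAAGUA
gma-miR6300_R+4: gucguuguaguauaguggUAAG
gma-miR6300_R+7: gucguuguaguauaguggUGAGUAU
gma-miR6300_R+2: gucguuguaguauaguggUA
gma-miR6300_R+3: gucguuguaguauaguggUGA
In the miR6478 sequences the capitals mark the letters TAGCTCAG (written with U here), which occur in the A box, an internal promoter element of many tRNA genes.
ptc-miR6478_R+2_1ss21GA: ccgaccuUAGCUCAGuugguaga
ptc-miR6478_R+4_1ss21GA: ccgaccuUAGCUCAGuugguagagc

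The names miR894 and miR5072 match 3′ ends of tRNAs. Their most abundant sequences and that of miR5139 are shown because all 3 stop at CCA, which is marked by capitals.
ppt-miR894_L-3R+1: uucacgucggguucaCCA
osa-miR5072_L-4_1ss13GA: uccccagcagagucgCCA
rgl-miR5139_L-1: aaccuggcucugauaCCA

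As a group, the members were few sequences with many reads. They were 10.1% of the listed sequences (7.91 to 12.6%) and held 23.2% of the listed reads (23.0 to 23.4%). The median member had 17 reads, against 8 for the 268 sequences named after other miRNA families and 3 for the 349 without a family name. In a whole tissue, the number of cells that hold a fragment and its amount per cell cannot be told apart.

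Most of the reads carried the names miR2911, miR2916 and miR1310. The 3 miR2911 sequences held 13755 reads, 43.6% of the members' reads, with 6495 reads of peu-MIR2911-p5, 5202 of nta-miR2911_L+3 and 2058 of nta-MIR2911-p3. The 2 miR2916 sequences held 9240 reads, 5998 of the p5 and 3242 of the p3 sequence. These 5 sequences alone made up 73.0% of the members' reads, and 4 of them stood at ranks 4, 6, 7 and 9 of all 686 sequences. The 2 miR1310 sequences had nearly equal counts, 1765 for p3 and 1741 for the mature form, although they had 23.8% and 80.0% G and C and share no overlap. For miR2911 the G and C content was between 69.6% and 82.6%.

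The names that match tRNA in other plants had fewer reads. The 14 miR6300 sequences held 3057 reads, the single miR894 sequence 828, the 8 miR6478 sequences 469 and the 3 miR5072 sequences 148, of which osa-miR5072_L-4_1ss13GA had 143. Together with the rRNA names, 19 sequences reached 100 reads and held 97.4% of the members' reads. The lowest count among these 19 was 107 and the highest among the other 50 was 66.

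The remaining names had few reads. The 17 miR5368 sequences held 338 reads and the 9 miR6173 sequences, a name that matches plastid small-subunit rRNA, held 116. For miR4995 there were 31 reads over 8 sequences, and for miR5139 28 reads over 2. The most abundant sequence had 66 reads in miR5368 (gma-MIR5368-p3_1ss15CT), 29 in miR6173 (hbr-MIR6173-p3_1ss2CT), 9 in miR4995 (gma-MIR4995-p5_1ss16GC) and 24 in miR5139 (rgl-miR5139_L-1).

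**Figure D1:**
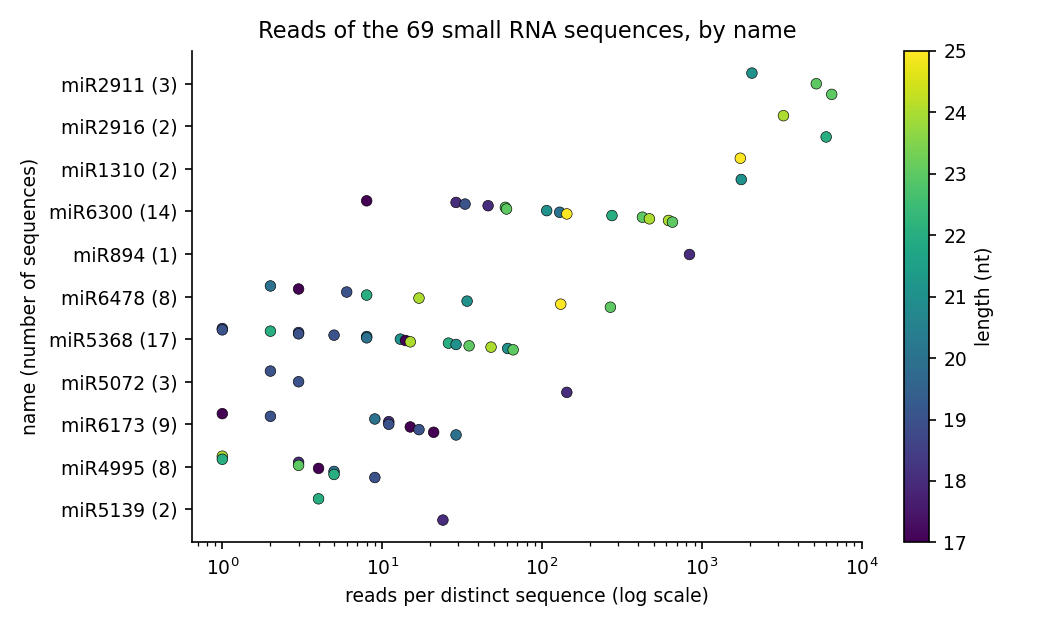
Each point is 1 of the 69 sequences, placed by its reads in the small RNA library on a log scale, in rows by name and coloured by length in nt. The miR2911, miR2916 and miR1310 points lie between 1741 and 6495 reads, whereas no miR5368, miR6173, miR4995 or miR5139 point exceeds 66.

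The names record where the matching was loose. A substitution code stood in 39 of the 69 names, and 9, all of them precursor names, carried no code at all. Each of the 34 mature names carried a code. Such codes were not counted for the other named sequences. Precursor names (MIR, with p5 or p3) covered 35 sequences with 20093 reads, and mature names (miR) covered 34 with 11423 reads. The prefixes came from 9 plants, led by soybean (gma) with 39 sequences. Rubber tree (hbr) gave 9 sequences, poplar 11 (ptc 8, peu 3), rice (osa) 3, tobacco (nta), sunflower (han) and Rehmannia (rgl) 2 each and the moss Physcomitrella (ppt) 1.

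By reads, the members' lengths differed from those of the other named small RNAs. Lengths of 20 to 22 nt held 33.6% of the members' reads (33.0 to 34.1%), against 97.8% of the reads of other named sequences and 45.3% of those without a family. The commonest length of members was 23 nt with 42.1% of reads, a length that held 1.64% of the reads of other named sequences. Members also had 14.0% of reads at 24 nt, 6.39% at 25 nt and 3.44% at 18 nt. Counting each sequence 1 time, 31.9% of members were of 20 to 22 nt, against 70.5% of other named sequences and 21.8% of those without a family, so members stood above sequences without a family, the reverse of their order by reads. Leaving out peu-MIR2911-p5, a 23 nt sequence, brought the share at 20 to 22 nt to 42.3%.

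**Figure D2:**
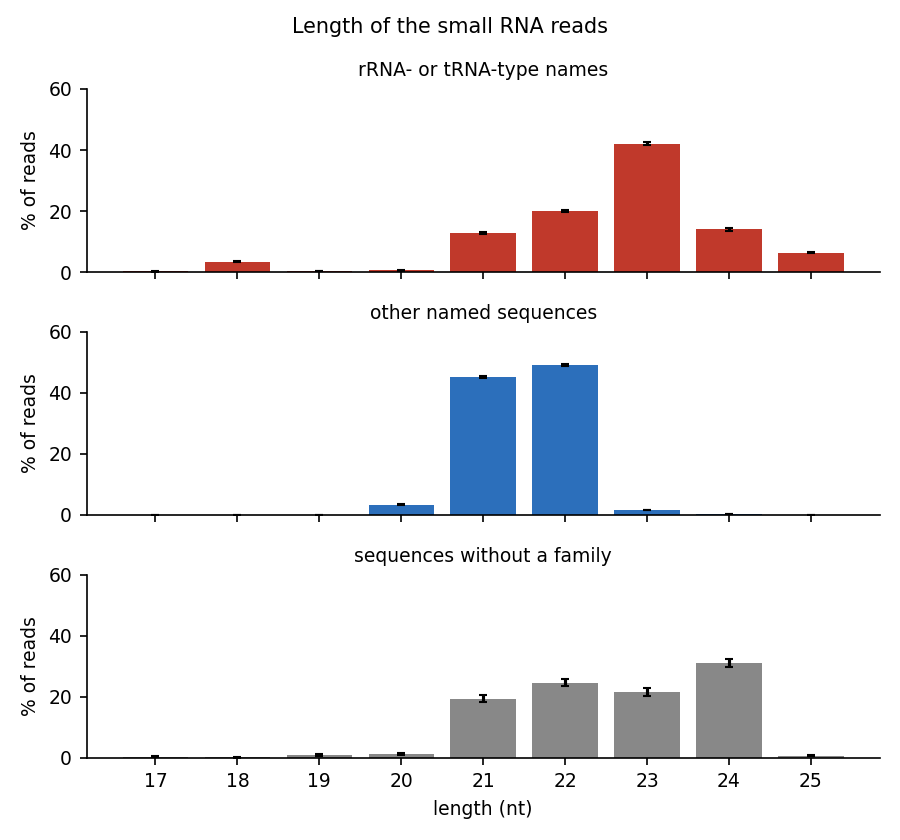
Percent of reads at each length from 17 to 25 nt for the rRNA- or tRNA-type names (top), the other named sequences (middle) and sequences without a family (bottom), with exact 95% binomial intervals as error bars. The rRNA- or tRNA-type names peak at 23 nt with 42.1% of reads, while the other named sequences lie almost wholly at 20 to 22 nt.

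The first base was U in 34.9% of the members' reads (34.4 to 35.4%), against 94.3% for the other named sequences and 50.7% for those without a family. Counting each sequence 1 time, U opened 27.5% of members, against 53.4% of other named sequences and 26.1% of those without a family, so members and sequences without a family changed order. G opened 32.1% of the members' reads, C 22.3% and A 10.7%. The median G and C content per sequence was 52.2% in members, against 47.6% in other named sequences and 39.1% in those without a family.

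Most sequences named miR6300 or miR6478 shared their 5′ end. A read takes a name by matching a listed sequence, so a shared end within a name is partly set by the naming. Shared ends were not counted for other miRNA families. Of the 14 miR6300 sequences, 11 began with the same 10 bases, and these held 2943 reads, 96.3% of the name. Of the 8 miR6478 sequences, 7 began alike, with 467 reads or 99.6%. The 3′ ends ran over several lengths in both.

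The miR6300 series peaked at neighbouring lengths. It had 29 reads at 18 nt, 33 at 19 nt, 129 at 20 nt, 107 at 21 nt, 274 at 22 nt, 1139 at 23 nt, 1089 at 24 nt and 143 at 25 nt. The 23 nt sequences made up 38.7% of the series and the 24 nt sequences 37.0%. The 18 and 19 nt sequences had U at base 18, where the longer ones had G. The 23 nt reads include 59 of a form with A at base 15. The miR6478 series had 268 reads at 23 nt and 131 at 25 nt but 17 at 24 nt, with 34 at 21 nt and 8 or fewer at each of the other lengths found.

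**Figure D3:**
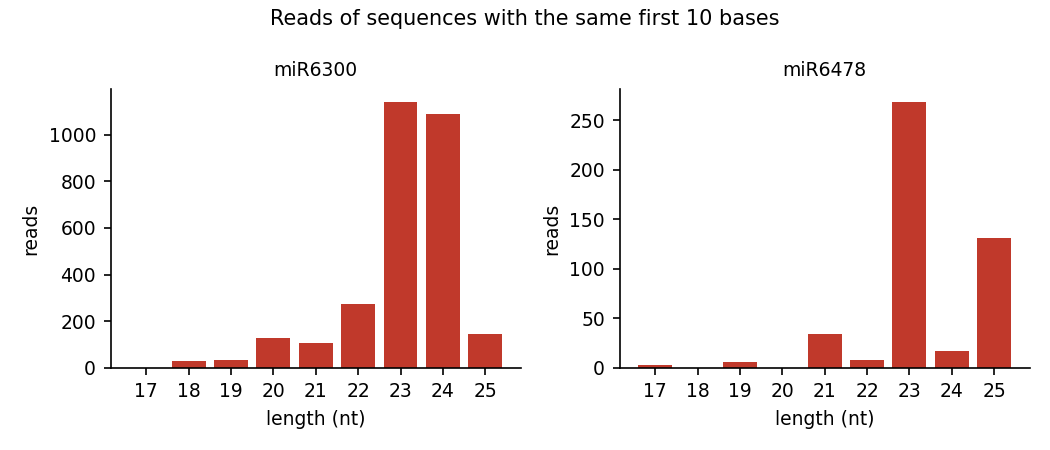
Reads by length in nt for the sequences that begin with the same 10 bases, 11 of miR6300 (left) and 7 of miR6478 (right). The miR6300 bars are highest at 23 nt (1139 reads) and 24 nt (1089 reads), and the miR6478 bars at 23 nt (268 reads) and 25 nt (131 reads).

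Within the miR6300 series a single base split the reads at a given length. With positions counted from 1 at the 5′ end, gma-miR6300_R+5-1 had G at base 20 and gma-miR6300_R+5-2 had A, with 655 reads against 425. The same difference separated gma-miR6300_R+6-1, with G and 619 reads, from gma-miR6300_R+6-2, with A and 470. Base 20 was compared among the sequences that share this start and reach at least 21 nt, not counting the rarer 15th-base form. It was G in 4 sequences with 1524 reads (56.6%) and A in 3 with 1169 reads (43.4%). The 20 nt sequence gma-miR6300_R+2, left out by this limit, also had A at base 20, with 129 reads. The 15th-base form, gma-miR6300_R+5_1ss15GA, had A at base 15, where gma-miR6300_R+5-2 had G, and held 59 reads. The source of the different letters was not tested.

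Shared 3′ ends covered most reads in a pair of names that stop at CCA. Both miR5139 sequences ended alike, and 2 of the 3 miR5072 sequences, with 145 of 148 reads, shared their last 10 bases. In names with longer lists the largest set that ended alike was smaller in share, 2 miR6300 sequences with 663 reads (21.7%), 3 miR5368 sequences with 40 reads (11.8%), 2 miR6173 sequences with 20 reads (17.2%) and 3 miR4995 sequences with 8 reads (25.8%). Sequences ending in CCA numbered 8 of the 69 members (11.6%), all named miR894, miR5072, miR5139 or miR4995, with 1018 reads. This compares with 16 of 617 other sequences (2.59%), which held more reads, 2110, and with 3.50% of all listed sequences. Several of the 8 are overlapping forms of 1 name and are not independent. The last bases of miR5139 also occurred in 4 sequences outside the rule, all of which ran on past the CCA.

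The A box letters TAGCTCAG occurred in all 8 miR6478 sequences, with 469 reads, and in no other member. That is 11.6% of members, against 5 of 617 other sequences (0.810%), with 20 reads, and 1.90% of all. The 8 are near-identical forms, 7 of them overlapping, that took 1 name by matching it. They are not independent, and their shared letters were largely set by the naming. The B box letters GTTCNANNC, from the second internal promoter element of tRNA genes, occurred in 0 of 69 members on the strand sequenced, against 4 others (0.648%) and 0.583% of all. On the opposite strand the A box letters occurred in 0 members and 1 other sequence, and the B box letters in nta-MIR2911-p3 and 2 others. No member held both the letters TAGCTCAG and a CCA end, so 16 members held either, and a match describes letters and not a site. Other versions of the A box letters were not searched, so a member without TAGCTCAG may still hold an A box.

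Sequences were linked when 1 contained the other, or when the end of 1 equalled the start of the other over at least 15 nt without a mismatch. This gave 29 groups among the 69 members. A shared start alone did not link sequences, so forms that begin alike could fall in different groups. All 8 miR4995 sequences fell in 1 group, and miR6300 formed 4 groups with 1638, 1298, 62 and 59 reads. The miR6173 sequences formed 6 groups and the miR5368 sequences 5. No group joined members of different names or reached a sequence outside the rule. By seed there were 44 distinct sets of letters, and 11 of them, covering 36 members, were shared within a name, up to 11 sequences for miR6300. No seed was shared between names or with any other listed sequence.

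Degradome sequencing captures the 5′ ends of uncapped RNA, so an mRNA cut opposite a small RNA leaves reads that begin at the cut. The authors gave each predicted pair an alignment score from 0 to 4, lower for fewer mismatches, and raw reads at the cleavage position when reads were found there. A pair with any such read is called detected here. Of the members' 1576 pairs, 35 were detected, 2.22% (1.55 to 3.08%), against 975 of 17188 pairs of other small RNAs, 5.67% (5.33 to 6.03%). Over all pairs the share was 5.38%. Pairs of 1 name share sequence and are not independent.

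The closest pairs of the members had no degradome read. At scores of 1.5 or less, 0 of 40 member pairs were detected, which allows a share of up to 7.50%, against 165 of 1358 (12.2%) for other small RNAs. The 40 pairs are overlapping forms on 14 transcripts, however, and by transcript 0 of 14 allows a share of up to 21.4%, against 122 of 995 (12.3%) for other small RNAs. At this number of transcripts a difference was not detectable. At scores of 2 or 2.5 the counts were 1 of 64 (1.56%) for members and 187 of 1956 (9.56%) for the others. At scores of 3 to 4 they were 34 of 1472 (2.31%) for members and 623 of 13874 (4.49%) for the others.

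Length moved together with this share. The 27 members of 17 to 19 nt, with 1246 reads, held 1424 of the 1576 pairs (90.4%), whereas the 42 members of 20 to 25 nt, with 30270 reads, held 152. In the short class 34 of 1424 member pairs were detected, 2.39% (1.66 to 3.32%), against 239 of 7871, 3.04% (2.67 to 3.44%), for other small RNAs. In the long class it was 1 of 152 member pairs, 0.658% (0.0167 to 3.61%), against 736 of 9317 (7.90%). At 17 nt alone the order was the reverse, 3.13% for members and 1.71% for the others. Both length classes were chosen after the data were seen, and the part of length in the pooled difference was not tested further.

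**Figure D4:**
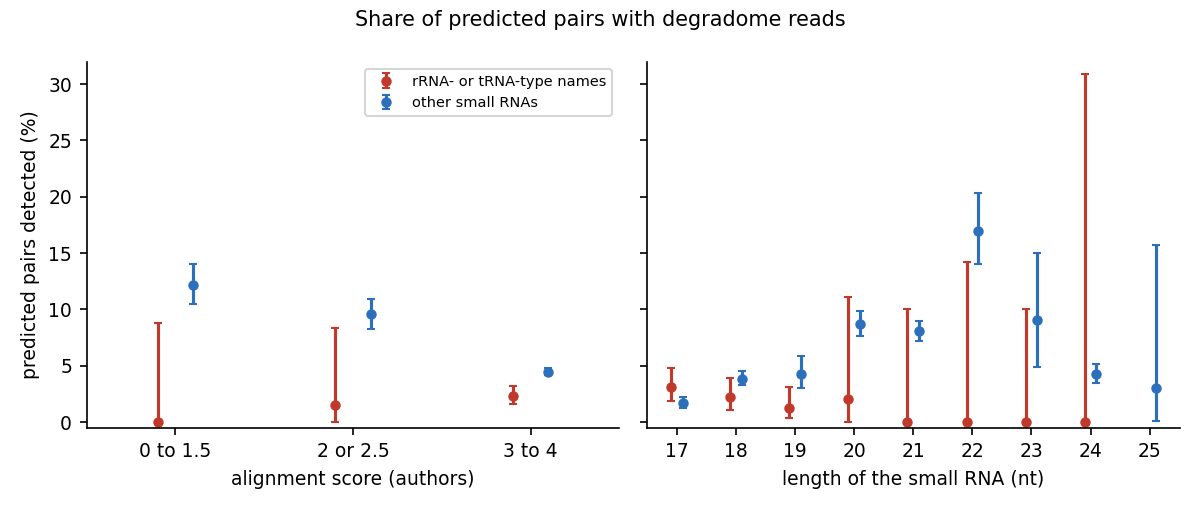
Percent of predicted pairs with degradome reads, by the authors' alignment score (left) and by the length of the small RNA in nt (right), for the rRNA- or tRNA-type names and for other small RNAs, with exact 95% binomial intervals. Members lie at 0 of 40 pairs for scores up to 1.5, where other small RNAs reach 12.2%, and at 17 nt members stand at 3.13% against 1.71%.

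The names miR2911, miR2916, miR1310 and miR894, with 27329 reads or 86.7% of the members' reads, had no detected pair, but they also had only 66 of the 1576 predicted pairs. The 16 small RNAs that had one held 456 reads together. The detected share was highest for miR5072, 5 of 122 pairs (4.10%, 1.34 to 9.31%). It was 7 of 242 (2.89%) for miR6300, 6 of 239 (2.51%) for miR4995, 7 of 315 (2.22%) for miR5368, 5 of 262 (1.91%) for miR6173, 4 of 253 (1.58%) for miR5139 and 1 of 77 (1.30%) for miR6478, against 5.38% over all pairs, with intervals that overlap each other. Another 14 members, with 4875 reads and all of 22 to 25 nt, had no predicted pair in the table; they included 8 miR6300 sequences with 2705 reads and han-miR1310_L-1R+4_1ss5AC.

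The authors sorted sites into categories 0 to 4, which the header does not define; in common usage the lowest categories hold the tallest peaks of a transcript and category 4 single reads. No member pair was in category 0 or 1, 0 of 35, which allows up to 8.57%, against 128 of 975 (13.1%) for other small RNAs and 12.7% over all detected pairs. Category 2 held 14 member pairs, category 3 held 1 and category 4 held 20. The authors' deposited p-value was between 0.405 and 1 in the 35 pairs, and it was at most 0.05 in 0 of 35, which allows up to 8.57%, against 124 of 975 (12.7%) for other small RNAs. The median p-value ran the other way, 0.963 for members and 0.999 for the others. Single reads made up 57.1% of the detected member pairs and 50.3% of the others, and the highest raw count was 8 for members and 754 for the others. These contrasts were not matched for length or score. Small RNAs of 17 to 19 nt gave 34 of the 35 detected member pairs, against 239 of 975 for the others. Scores of 3 to 4 held 34 of 35 against 623 of 975. The part of length and score in the contrasts was not tested.

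The site with the most reads was in a transcript annotated as histone H2A, a core protein of nucleosomes, Sme2.5_02192.1_g00004.1. It had 8 raw reads at nt 143, opposite the miR6173 sequence hbr-MIR6173-p3, at score 4 and an authors' p-value of 0.729. The normalized value was 4, below the raw count, which the deposited header does not explain. Next came 5 raw reads at nt 795 of the KING1 transcript, Sme2.5_00026.1_g00025.1, opposite gma-MIR4995-p5-1. KING1 is a regulatory subunit of a SnRK1-type kinase in Arabidopsis.

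The other 7 sites with at least 3 raw reads had exactly 3. A CLH1 transcript, Sme2.5_04620.1_g00002.1, annotated as chlorophyllase, the enzyme that removes the tail of chlorophyll, had 3 at nt 784 and 3 at nt 785, opposite a pair of miR5072 forms. The 3 eIF-4A transcripts, which encode an RNA helicase of translation initiation, had 3 raw reads each and a normalized value of 1 each, opposite gma-MIR5368-p3_1ss2AT at nt 55, 469 and 571. The normalized value was below the raw count in 11 of the 35 detected pairs. The eIF-4A sites enter the counts given here as 3 pairs, and whether they hold the same reads was not tested. The remaining sites were nt 390 of an aquaporin (PIP), a water channel, and nt 1215 of CSN3, a subunit of the COP9 signalosome, opposite the miR6478 sequence ptc-MIR6478-p5.

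Below these, 6 sites had 2 raw reads and 20 had 1. The 2-read sites were in SYN3, a cohesin subunit, At3g48440, GPT1, roco5 and 2 transcripts without a symbol, Sme2.5_00076.1_g00012.1 and Sme2.5_02142.1_g00004.1. The detected pair with the lowest score was rgl-miR5139_L-1 at nt 52 of Sme2.5_09952.1_g00001.1, with score 2 and 1 raw read. No other small RNA was paired with any of the 35 sites.

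The closest pairs are described by transcript. The 40 pairs at scores of 1.5 or less fell on 14 transcripts and involved 27 members with 17470 reads, 55.4% of the members' reads. Of these pairs 34 lay on 8 transcripts that were paired with at least 2 members each. Overlapping forms of a sequence pair with the same transcript by construction, and the 1358 such pairs of other small RNAs lay on 995 transcripts. Other small RNAs had no pair at such scores on the 14 transcripts, and their 5 pairs there scored 3 or more.

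On Sme2.5_01890.1_g00003.1, which has no annotation in the deposited table, 8 of the 9 miR6173 sequences paired between nt 90 and nt 197. They covered 93 of those 108 nt, 86.1%, with between 1 and 29 small RNA reads each. Transcript Sme2.5_17375.1_g00002.1 paired with 7 miR5368 sequences over nt 3051 to 3095, with no gap. The IMP4 transcript, Sme2.5_00226.1_g00017.1, paired with 6 miR5368 sequences over nt 722 to 750. IMP4 is a protein of rRNA processing in yeast. The pol transcript, Sme2.5_00300.1_g00011.1, named after a retroelement polyprotein, paired with 5 miR5368 sequences over nt 2463 to 2514.

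Some abundant members were paired as closely. The ART3 transcript, Sme2.5_13790.1_g00002.1, is named after a reading frame that lies antisense to rRNA in Saccharomyces cerevisiae. It paired with nta-miR2911_L+3 at nt 31 to 53 with score 0 and with peu-MIR2911-p5 at nt 78 to 100 with score 1, 24 nt apart. On Sme2.5_27277.1_g00001.1 nta-MIR2911-p3 paired at nt 324 to 344 with score 1 and peu-MIR2911-p5 at nt 410 to 432 with score 0.5, 65 nt apart. The TY3B-G transcript, Sme2.5_32385.1_g00001.1, named after a yeast retrotransposon, paired with peu-MIR2916-p3 at nt 31 to 54 with score 0. The other miR2916 sequence, peu-MIR2916-p5_1ss5AG with 5998 reads, had 1 predicted pair, at score 3.5.

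Further transcripts were paired with small RNAs of lower abundance. RNS2, Sme2.5_14980.1_g00001.1, a T2-type ribonuclease of rRNA turnover in Arabidopsis, paired with 2 miR6173 sequences at score 0, at nt 852 to 871 and nt 854 to 872. Sme2.5_00885.1_g00003.1 paired with 2 miR5072 sequences from nt 21, at scores 0.5 and 1.5. The Tf2-1 transcript, Sme2.5_20804.1_g00001.1, paired with rgl-miR5139_L-1 at nt 883 to 900 with score 0, and a casein kinase 1 transcript, Sme2.5_02831.1_g00008.1, with the same small RNA at score 1. The last 3 transcripts, each with a single pair at scores of 1.5 or less, were Sme2.5_00355.1_g00006.1 and Sme2.5_08379.1_g00003.1, paired with rgl-miR5139_L-1 at scores 1.5 and 1, and AtMg00810, Sme2.5_06581.1_g00004.1, paired with a miR5072 sequence at score 1.

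**Figure D5:**
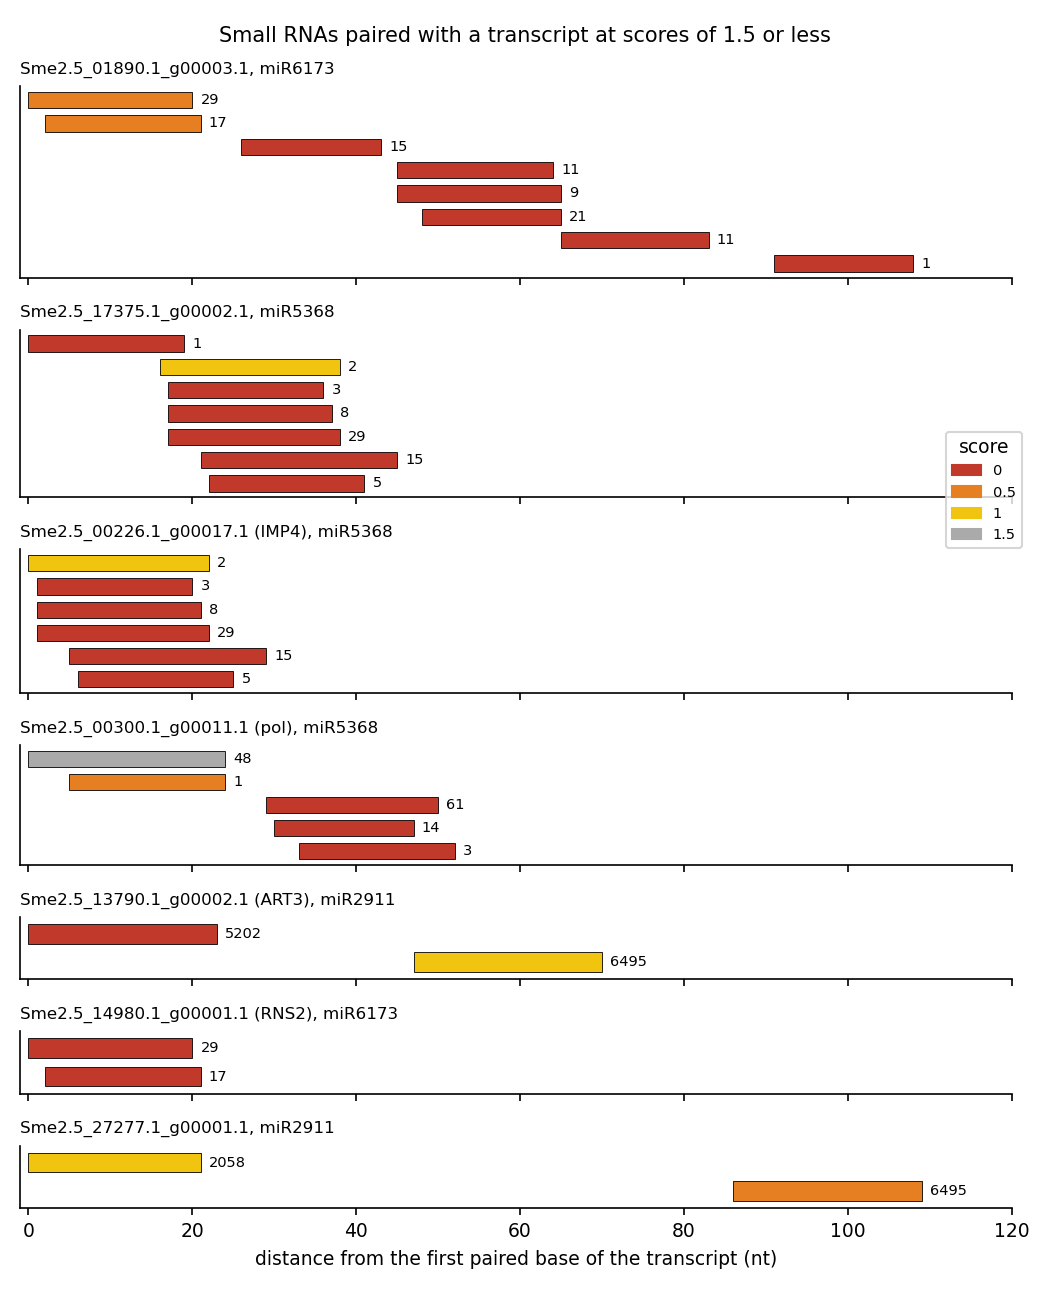
Positions of paired small RNAs along the 7 transcripts shown, in nt from the first paired base, coloured by the authors' score and labelled with the small RNA's reads. On Sme2.5_01890.1_g00003.1, 8 miR6173 sequences cover 93 of 108 nt, and the miR2911 pairs on 2 transcripts involve sequences with 2058 to 6495 reads.

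The other names had no pair at such scores. The lowest score was 2 for miR4995, on transcripts that include GIP and AtMg00810, 2.5 for miR6478 and for miR6300, whose pairs include the replication helicase subunit mcm5-a, and 3 for miR1310 and miR894. None of these pairs was detected.

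Words in the annotation of the paired transcripts were counted for lists of gene functions. Of the 174 annotated transcripts paired with members, 13 (7.47%) named translation machinery, against 111 of 1598 (6.95%) for other small RNAs, with a detected pair in 4 of the members' transcripts (the 3 eIF-4A transcripts and TFIIB2) and 21 of the others. These 13 include several tRNA synthetases, eIF-4A and ribosomal proteins, but also TFIIB, which acts in transcription, and AGO2, an Argonaute protein annotated by an older name. Kinase words, which also took in sugar and lipid kinases, were found in 18 (10.3%) against 155 (9.70%), and words for reading frames of rDNA or organelles in 2 (1.15%) against 21 (1.31%). Words for textbook miRNA targets were found in 0 of the 174, which allows up to 1.72%. Other small RNAs had 28 of 1598 (1.75%), 11 of them with a detected pair. That share lies close to the limit, so the 0 cannot separate the sets. In the annotation text alone, retroelement words were found in 0 of the members' 174 transcripts and 1 of the other 1598; pol, TY3B-G and Tf2-1 are symbols without such text, and counts by symbol or gene ontology term are given among the other observations. Disease resistance words matched 2 transcripts of members (1.15%), both annotated as a multidrug resistance protein, against 7 of other small RNAs (0.438%).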

How the data were processed

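Small RNAs and 5′ ends of uncapped RNA (degradome) were measured in 1 library each of mixed eggplant pistils. Per the file headers, the deposited small RNA table gives read counts per distinct sequence, and the authors' degradome table gives raw read counts at the cleavage position. The authors' alignment score and category score, normalized reads and TPB (signal values) and p-value per pair were taken as deposited. The trimming, naming and target prediction tools and the genome build are not given in the sources used here. Depth is known only as the 135737 listed reads, which are not the whole library, so shares are of listed reads.

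Members, word lists and motifs were chosen with earlier results of these data known. Shares, exact 95% intervals, overlaps of at least 15 nt and motif matches were computed with Python 3.11.15, pandas 2.3.3 and SciPy 1.17.1. The overlap grouping was tested on simulated sequences and the member rule on example names. The motif, detection and word counts were not tested in this way. The upper limit for a count of 0 is 3 counts of the total. Named were members with at least 100 reads, the most abundant member of each name, the 10 sites with the most raw reads, with ties given together, and the lowest-score site of each name. Alternatives changed the read minimum, overlap, score limit, read weighting and the sequences or names included.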

Additional observations from a re-analysis of the deposited data

How the results depend on the processing

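The share of listed reads held by the members, 23.2%, was 30.5% without the most abundant listed sequence of any name and 19.4% without the most abundant member, peu-MIR2911-p5. Their share of sequences was 20.2% among sequences with at least 10 reads. The share of reads at 20 to 22 nt was 31.9% when each sequence counted 1 time and 42.3% without the most abundant member. The detected share, 2.22%, was 0.962% at scores of 2.5 or less, 0.952% when at least 2 raw reads were required and 0.658% for small RNAs of 20 nt or more, a class added after the data were seen. The causes of these shifts were not tested. The alternatives for categories 0 and 1 only kept subsets of the same 35 pairs, or used the authors' p-value of at most 0.05, and say nothing of stability. Overlap groups numbered 29 to 35. No paired analysis was possible because each assay had 1 library. Single raw reads make up 20 of the 35 detected pairs, and without a second library none of these values has a check on its spread.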

Other observations

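Some sequences outside the rule share letters with members. The last bases of miR5139 occurred in 4 other listed sequences, named after miR1511, miR1863 and miR1873 and holding 10 reads together, and in each of them the sequence ran on past the CCA. The A box stretch of miR6478 occurred in 5 other sequences with 20 reads, of which 4 were named after MIR916.

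Transcripts that carry a retroelement term or symbol, a list chosen after the symbols were seen, made up 404 of 1333 transcripts paired with members (30.3%, 27.9 to 32.9%), against 3285 of 11882 (27.6%) paired with other small RNAs. For small RNAs of 17 to 19 nt the shares were 29.9% for members and 32.9% for the others. By name, over names with at least 15 paired transcripts, the share ran between 5.00% for miR894 (1 of 20) and 47.2% for miR4995 (77 of 163), with 20.2% for miR5072 and 22.8% for miR6300. The 8 miR4995 sequences overlap and form 1 group.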
